A study of Mus musculus with 6 samples.

Results

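Dazl and 8 other genes for RNA-binding proteins that control mRNA translation and stability in germ cells were followed in mouse embryonic stem cells given a vitamin C derivative. The 9 genes, Dazl, Boll, Nanos1, Nanos2, Nanos3, Dnd1, Pum2, Cpeb1 and Ddx25, were chosen by name, with earlier results of these data known, from 22180 genes with a feature of their own on the array, and each of them has 1 feature. R1 cells, a male line of the cross 129X1 x 129S1, were kept on a gelatin coat with fetal bovine serum and with LIF, a cytokine for the self-renewal of mouse embryonic stem cells. AA2G cells received 0.74 mM (250 µg/ml) AA2G, called ascorbic acid 2-glucose in the labels, during 3 days of culture, and untreated cells were cultured without it. Total RNA of 3 samples a group, described as independent, was read on Mouse Gene 2.0 ST arrays, 1 array a sample. R1 is 1 cell line, so the samples repeat the culture and not the genotype.

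These proteins act on mRNAs that a germ cell has already made. DAZL and its relative BOLL bind mRNAs through an RNA recognition motif and can bring in poly(A)-binding protein, which favours translation. Nanos proteins, zinc finger proteins that work with Pumilio proteins such as PUM2, and DND1, a partner of NANOS2, bring mRNAs to the CCR4-NOT complex, which shortens the poly(A) tail. CPEB1 controls lengthening of the tail in the cytoplasm, and DDX25 is a helicase of testis germ cells that takes part in export and translation of mRNAs. Dazl, Nanos2 and Nanos3 are known for roles in the formation or upkeep of germ cells, and Dnd1 for the testis teratomas of mice that lack it.

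The comparison of AA2G with untreated cells asks whether Dazl changed alone or together with these partners. Dazl rose with AA2G, and none of the other 8 genes passed the test in limma. In the model, 1 of the 9 genes was called higher and 0 lower, where 0.608% of the 23521 features tested were called higher and 0.153% lower (0.761% in either direction). Since the rise of Dazl was known when the genes were chosen, its count of 1 says nothing of the group. A gene was called at a Benjamini-Hochberg adjusted p under 0.05 over all features tested. Without adjustment, at p under 0.05, 2 of the other 8 genes were lower and 0 were higher, where 5.06% of all features were lower and 4.66% higher (9.71% in either direction). All values are on the log2 scale of RMA, the array summary used for the deposited table, all changes are AA2G minus untreated, and errors are SD over 3 arrays for levels and fitted SE for changes.

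Dazl had log2 values of 9.25, 9.62 and 9.41 on the AA2G arrays, against 7.32, 6.83 and 7.02 on the untreated arrays. Every AA2G array lay far above every untreated array, and the gap between the groups was several times the range within either. The mean was 9.43 ± 0.19 with AA2G and 7.06 ± 0.24 in untreated cells (SD, n = 3 each), a change of 2.37 ± 0.14 (SE; limma adjusted p = 0.000284). This is a 5.17-fold rise with a 95% interval of 4.13 to 6.47, and among all features tested Dazl had the 4th largest fitted rise. Leaving out any 1 of the 6 arrays gave changes from 2.26 to 2.50, all past the threshold. With the variance of each feature estimated alone, which leaves 4 residual degrees of freedom, the adjusted p was 0.0972, and over 15 alternatives it ran from 3.7e-05 to that value. In bulk RNA a larger share of cells with Dazl transcripts and more transcripts per cell cannot be told apart.

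The promoter windows of Dazl, of Nanos2 and of Ddx25 are shown because Dazl rose, the other genes did not pass, and the windows differ in CpG content, CpG being the dinucleotide that DNA methylation acts on. Each window runs from 250 bases before to 50 bases after the annotated start, as given by RefSeq on build GRCm38.p6, and is written 5′ to 3′ on the gene's strand with each CpG in capitals. That of Dazl is chr17:50293571-50293870 (minus strand), that of Nanos2 chr7:18987274-18987573 (plus strand) and that of Ddx25 chr9:35558421-35558720 (minus strand).
Dazl: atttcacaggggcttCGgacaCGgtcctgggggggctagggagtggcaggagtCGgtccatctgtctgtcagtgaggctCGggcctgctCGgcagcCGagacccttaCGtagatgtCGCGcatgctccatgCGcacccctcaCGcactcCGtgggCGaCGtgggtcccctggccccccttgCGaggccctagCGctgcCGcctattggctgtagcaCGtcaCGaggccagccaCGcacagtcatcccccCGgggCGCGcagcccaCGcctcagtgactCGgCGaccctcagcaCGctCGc
Nanos2: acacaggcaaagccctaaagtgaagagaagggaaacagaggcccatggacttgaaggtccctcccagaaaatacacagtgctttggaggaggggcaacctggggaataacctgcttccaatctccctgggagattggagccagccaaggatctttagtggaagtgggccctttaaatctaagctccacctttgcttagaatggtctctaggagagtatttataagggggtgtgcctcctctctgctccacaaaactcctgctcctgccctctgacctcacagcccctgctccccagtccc
Ddx25: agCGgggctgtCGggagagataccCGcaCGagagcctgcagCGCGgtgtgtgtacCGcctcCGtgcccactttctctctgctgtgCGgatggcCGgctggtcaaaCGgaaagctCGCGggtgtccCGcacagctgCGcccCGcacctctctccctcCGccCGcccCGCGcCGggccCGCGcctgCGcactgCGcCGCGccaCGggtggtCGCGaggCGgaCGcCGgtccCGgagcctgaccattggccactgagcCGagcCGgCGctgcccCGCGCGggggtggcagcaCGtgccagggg
The Dazl window holds 28 CpG, the Nanos2 window 0 and the Ddx25 window 41, against a median of 7 over 32851 windows of 300 bases in the table. As many CpG as in the Dazl window or more were found in 14.2% of those windows.

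Windows of 8 of the 9 genes were in that table, 11 in all, since Boll has 2 and Pum2 has 3. The gene without one is Dnd1. Besides Dazl and Ddx25, the windows of Nanos1 (34), Cpeb1 (33), Pum2 (35 to 44) and 1 of Boll (39, the other having 13) were rich in CpG, and that of Nanos3 held 3. CpG-rich starts were found for the gene that rose and for several that did not pass. DNA methylation was not measured on these arrays, and the part of CpG content in the changes was not tested. A pair of short motifs that do not overlap each other was looked for on both strands. The E-box CACGTG stood in 3 of the 11 windows (of Boll, Cpeb1 and Ddx25) and in 7.15% of all windows, and GGCGGGA stood in 2 of the 11 (of Boll and Pum2) and in 11.3% of all windows. The Dazl window has neither. These are matches of letters only.

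**Figure D1:**
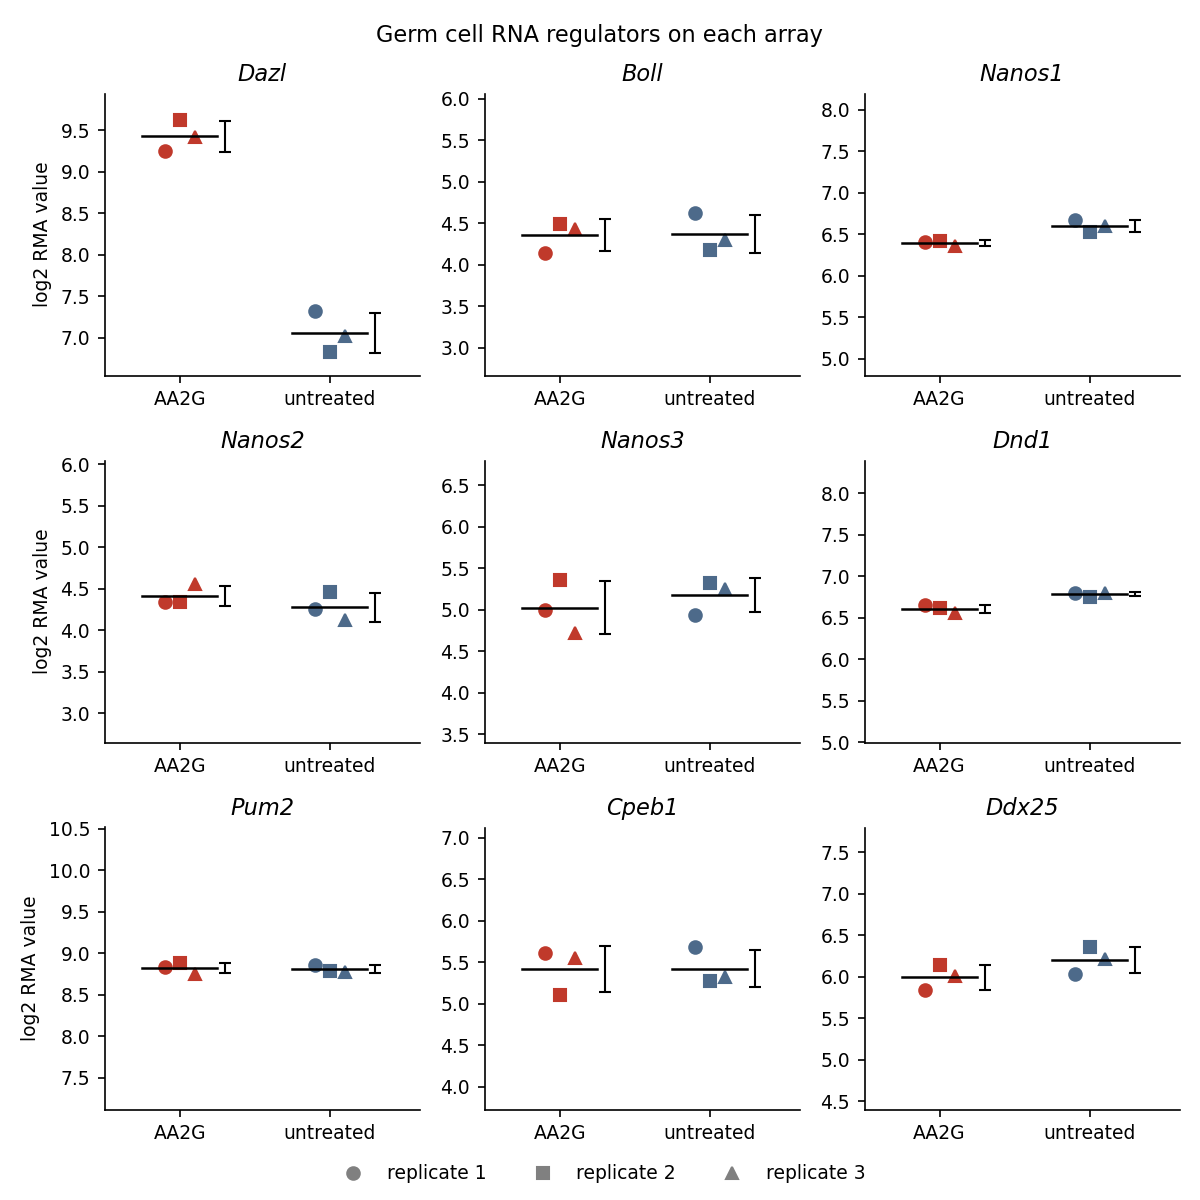
Log2 RMA value of each of the 9 genes on the 3 AA2G arrays (red, left) and the 3 untreated arrays (blue, right), with symbols for the replicate number, the mean (line) and the SD (bar). Each panel spans the same number of log2 units, and only Dazl has groups that are far apart, with AA2G arrays from 9.25 to 9.62 and untreated arrays from 6.83 to 7.32.

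Boll, the closest relative of Dazl in the mouse and known for its need in late sperm formation, had 4.14, 4.49 and 4.43 on the AA2G arrays, against 4.63, 4.18 and 4.30 on the untreated arrays. The groups overlapped, and the lowest and the highest of the 6 values were both those of replicate 1. Its change was -0.01 ± 0.14 (SE; limma adjusted p = 0.987). The deposited values carry no detection calls, so background was not measured. The mean of Boll, like that of Nanos2, lay below the percentile 40 of the features tested (4.99). That percentile is a cut set here and not a measured background. Both genes are called dim below, and whether either lies above background is not known.

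None of the 3 Nanos genes passed the test. Nanos2, which keeps spermatogonial stem cells undifferentiated, had 4.35, 4.34 and 4.55 on the AA2G arrays, against 4.26, 4.46 and 4.12 on the untreated arrays. These groups overlapped, and the change was 0.13 ± 0.11 (SE; limma adjusted p = 0.764). Nanos3, which primordial germ cells need to survive, had 5.00, 5.35 and 4.71 on the AA2G arrays, against 4.94, 5.32 and 5.25 on the untreated arrays. Only AA2G replicate 3 lay below all untreated arrays, and the change was -0.15 ± 0.17 (adjusted p = 0.847). Without that array the Nanos3 value was 0.0035.

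Nanos1, a family member with expression also in the nervous system, had 6.41, 6.42 and 6.35 on the AA2G arrays, against 6.67, 6.53 and 6.60 on the untreated arrays. All 3 AA2G arrays were below all untreated arrays, by a small margin. The change of -0.21 ± 0.07 (SE) had an unadjusted p of 0.0197 and did not pass (limma adjusted p = 0.364).

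Dnd1 had 6.65, 6.62 and 6.55 on the AA2G arrays, against 6.80, 6.75 and 6.79 on the untreated arrays. Here too the groups did not overlap, with the AA2G arrays the lower ones. The change of -0.17 ± 0.07 (SE) did not pass (limma adjusted p = 0.451, unadjusted p = 0.0342). Over all features tested, 8.48% had AA2G arrays wholly below the untreated arrays and 7.21% wholly above (15.7% in either direction). Of the 9 genes, Nanos1 and Dnd1 were wholly below and Dazl was wholly above.

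Pum2, a Pumilio protein that many cell types use, had 8.84, 8.88 and 8.75 on the AA2G arrays, against 8.86, 8.78 and 8.78 on the untreated arrays. The groups overlapped almost completely, and the interval of this change is narrow. Its change was 0.01 ± 0.07 (SE; limma adjusted p = 0.975), and the 95% interval for the fold ran from 0.901 to 1.13.

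Cpeb1 had 5.62, 5.11 and 5.55 on the AA2G arrays, against 5.68, 5.27 and 5.32 on the untreated arrays. Replicate 1 was the highest array and replicate 2 the lowest in both groups, and the groups overlapped. The change was -0.00063 ± 0.16 (SE; limma adjusted p = 0.999). Ddx25 had 5.84, 6.14 and 6.003 on the AA2G arrays, against 6.04, 6.35 and 6.22 on the untreated arrays. The groups overlapped, and the change of -0.21 ± 0.11 did not pass (adjusted p = 0.612).

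For the 8 genes other than Dazl the median change was -0.08, with 2 positive and 6 negative values from -0.21 to 0.13, where the median over all features tested was -0.01. Without the dim genes Boll and Nanos2, the highest upper end of a 95% interval was that of Cpeb1, at a fold of 1.29, and the lowest lower end that of Nanos3, at a fold of 0.690. Nanos3, at a mean of 5.10, lay little above the percentile 40 of the features tested (4.99). RMA compresses the changes of dim features, so these ends bound the measured values.

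**Figure D2:**
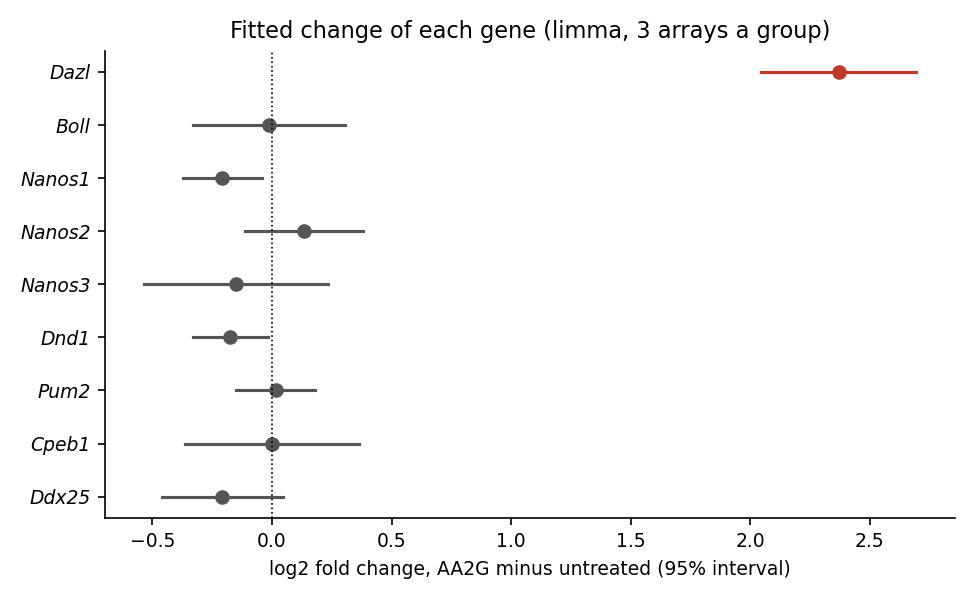
Fitted log2 fold change, AA2G minus untreated, of each of the 9 genes with its 95% interval (limma, 3 arrays a group). Dazl (red) stands at 2.37, and the other genes lie between -0.21 and 0.13.

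Whether the change of Dazl differed from that of each partner was tested directly, on the log2 value of Dazl minus that of the partner on each array. Among the 6 partners that are not dim, the difference between the 2 changes ran from 2.36 ± 0.15 (SE) for Pum2 to 2.58 ± 0.15 for Nanos1. For Boll and Nanos2 the size is not read, since a feature that may lie near background may not show the size of its own change. For all 8 partners the 3 AA2G arrays lay above the 3 untreated arrays in this measure. The same Dazl values enter all 8 differences, and their rise was known when the genes were chosen. These separations therefore repeat the rise of Dazl and are not 8 separate results. Each exact two-sided permutation test gave p = 0.1, the smallest that 3 arrays against 3 can give, and p = 0.1 after Benjamini-Hochberg adjustment over the 8 tests. This test therefore cannot pass 0.05 in this design, and the size of the differences stands beside the intervals above.

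Beyond the 9 genes, lists of related genes were read in the same model. Of 10 paralogues and associated proteins, 8 had a feature of their own, and 0 passed in either direction, and without adjustment limma had 1 higher and 2 lower at p under 0.05 (37.5%, against 9.71% of all features). The arrays of the groups did not overlap for 5 of the 8 (62.5%), where 15.7% of all features were so, and these shares over a few genes are given with no test. Their median change was -0.01. Ddx4, the germ cell helicase also called Vasa and a relative of Ddx25, was at 6.97 ± 0.05 with AA2G and 7.14 ± 0.05 in untreated cells (SD, n = 3 each; limma adjusted p = 0.481). Dazap2, named for its binding to DAZ proteins, was at 0.19 ± 0.08 (SE), Ddx6, a helicase of RNA granules, at -0.18 ± 0.08 and Cpeb4 at 0.12 ± 0.08, and these did not pass either.

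Of 28 other RNA-binding and RNA-processing proteins used in germ cells, 26 were measured. In this list 1 gene rose, 0 fell and 25 did not pass, and without adjustment 3 were higher and 4 lower at p under 0.05. Lists share genes: Ddx4, 1 of those lower, also counts as lower among the paralogues, the mRNAs bound by DAZL and the later germ cell markers. The called share was 3.85%, against 0.761% of all features, and the unadjusted share 26.9%, against 9.71%, shares that are likewise descriptions with no test. The called share comes from 1 gene in a list chosen with earlier results of these data known, so it says nothing of the list. The riser was Mov10l1, a helicase that makes piRNA precursors available, at 8.58 ± 0.09 with AA2G and 7.01 ± 0.09 in untreated cells (SD, n = 3 each; limma adjusted p = 0.000212). The list median was -0.04. Lin28b, which blocks maturation of let-7 microRNAs, was at 6.25 ± 0.07 with AA2G and 6.66 ± 0.07 in untreated cells (limma adjusted p = 0.0657), and it passed as lower with a trended robust prior (0.0415), with array weights (0.0272) and among brighter features only (0.0293), with adjusted p from 0.0272 to 0.234 over 15 alternatives. Rnf17, of germ cell granules, was at 0.26 ± 0.07 (SE) and Tia1, of stress granules, at -0.29 ± 0.10, and these did not pass. Meioc and Ythdc2, partners in the meiotic programme and both named after their values were seen, were at -0.05 ± 0.13 and 0.29 ± 0.12 without passing.

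Lists of the machinery that these proteins call on held no called gene. Of 17 genes of the CCR4-NOT deadenylase and its Btg and Tob regulators 14 were measured and 0 passed in limma, with a median of -0.05. Without adjustment 0 were higher and 2 lower at p under 0.05 (14.3%, against 9.71% of all features). Cnot6l, a catalytic subunit, was at -0.32 ± 0.09 (SE; limma adjusted p = 0.218), Btg2 at -0.19 ± 0.08, Tob1 at -0.17 ± 0.08 and Cnot7, another catalytic subunit, at 0.09 ± 0.07. Of 22 genes for poly(A) tail and cap binding 20 were measured and 0 passed, with a median of -0.04. Without adjustment 1 was higher and 1 lower at p under 0.05, a share of 10% near the 9.71% of all features. Eif4g3, a scaffold of cap-dependent translation, was at -0.34 ± 0.08 (limma adjusted p = 0.160), and it passed as lower with array weights (0.0348), with adjusted p up to 0.464 over 15 alternatives. Pabpc6, a poly(A)-binding protein gene, was at 0.19 ± 0.07, Paip1 at -0.23 ± 0.10 and Papolb, a testis poly(A) polymerase, at -0.21 ± 0.12.

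The last list holds mRNAs that work on mouse germ cells has reported as bound by DAZL. Of 12 genes 10 were measured and 0 passed in limma. Without adjustment 0 were higher and 1 (Ddx4) lower at p under 0.05, a share of 10% near the 9.71% of all features. Their changes ran from -0.17 to 0.12 with a median of 0.01. Tex11, a meiotic recombination gene on the X chromosome, was at 0.12 ± 0.07 (SE), and its AA2G arrays were all above its untreated arrays. Sall4, a transcription factor of stem cells and germ cells, was at -0.11 ± 0.08, with its second feature at 0.03 ± 0.11, and the Polycomb gene Suz12 was at 0.11 ± 0.09. These arrays measure transcript levels and give no reading of translation.

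**Figure D3:**
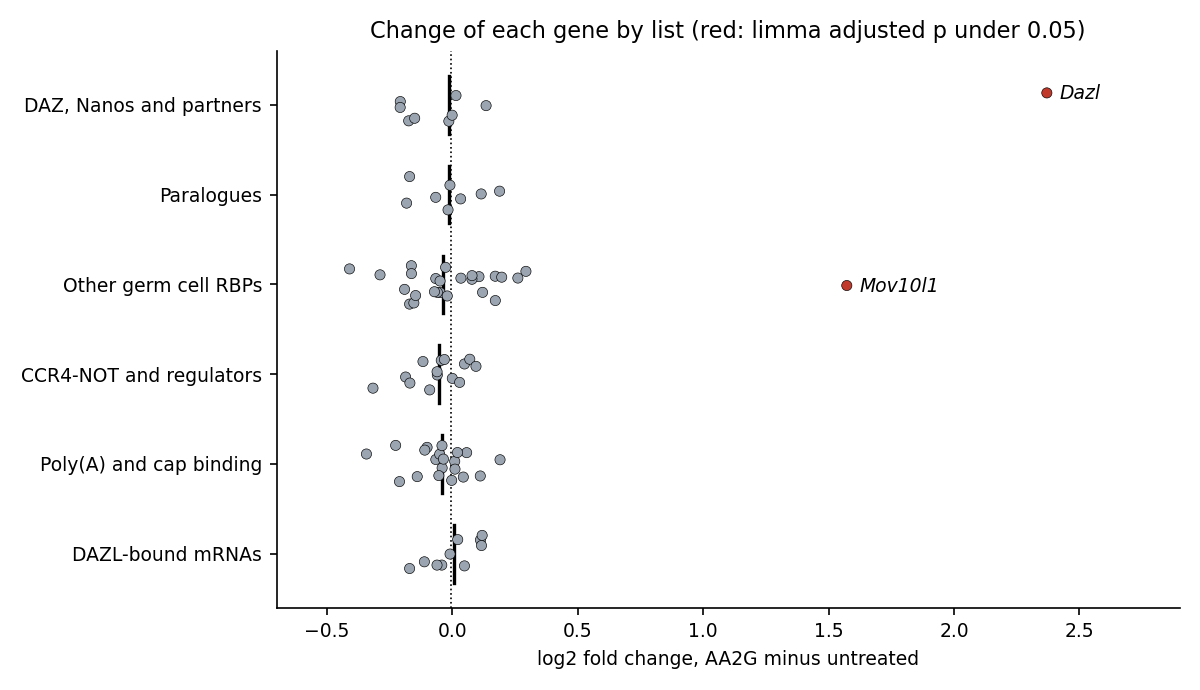
Log2 fold change, AA2G minus untreated, of every measured gene in 6 lists, 1 point a gene in each list (its brightest feature), with the list median (short line) and the median of all features tested (dotted line, -0.01). A gene of several lists, such as Ddx4, is drawn in each. Red points passed a limma adjusted p of 0.05, and they are Dazl at 2.37 and Mov10l1 at 1.57.

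No gene beside Dazl on chromosome 17 passed the test. In RefSeq order, Daam2, Kif6 and Rftn1 precede Dazl, and Plcl2, Tbc1d5 and Satb1 come after it. Rftn1, a lipid raft protein gene and the nearest on one side, was at -0.20 ± 0.10 (SE; limma adjusted p = 0.572), and Plcl2, the nearest on the other, at -0.11 ± 0.09 (adjusted p = 0.771). Satb1, a chromatin organiser, was at -0.39 ± 0.10 and did not pass (adjusted p = 0.198). Tbc1d5 was at 0.13 ± 0.08, with its second feature at -0.05 ± 0.11, Kif6 at 0.07 ± 0.10 and Daam2 at 0.16 ± 0.12. So 0 of the 6 neighbours passed in limma, where 0.761% of all features were called, and a count of 0 of 6 says little of the locus. Without adjustment, at p under 0.05, Satb1 was lower and no neighbour was higher, where 5.06% of all features were lower and 4.66% higher.

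**Figure D4:**
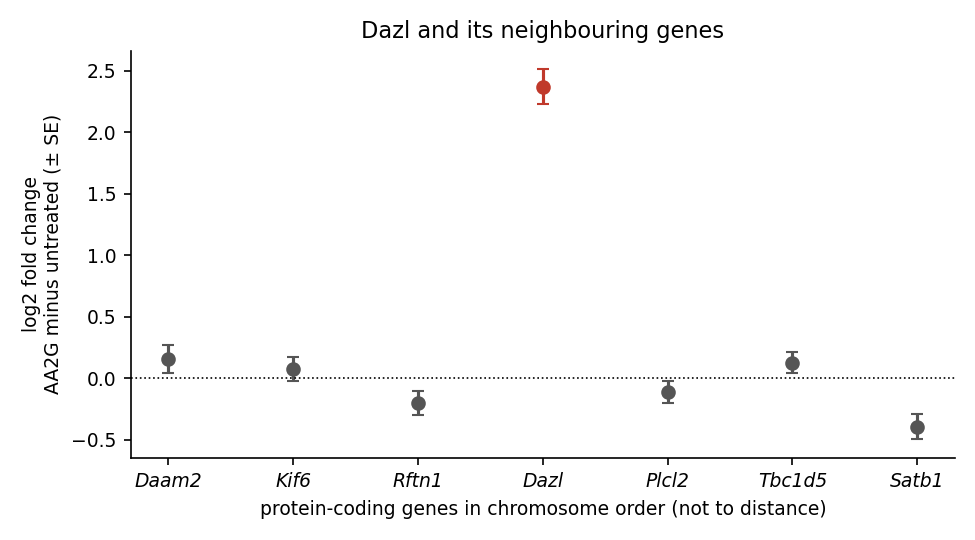
Log2 fold change, AA2G minus untreated, with its SE, of Dazl and the 3 nearest protein-coding genes on each side, in chromosome order and not to distance. Dazl (red) stands at 2.37, and its neighbours lie between -0.39 and 0.16.

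Genes with a pattern like that of Dazl were looked for among 247 protein-coding features whose values span at least 1 log2 unit over the 6 arrays. The 5 with the highest Pearson correlation to Dazl were Epha4 (0.998), Pla2g4a (0.997), Sohlh2 (0.994), Rec114 (0.994) and Morc1 (0.993). These are descriptions over 6 arrays in 2 groups that Dazl already separates. Epha4, an ephrin receptor gene, was at 9.13 ± 0.06 with AA2G and 7.99 ± 0.17 in untreated cells (SD, n = 3 each), and Pla2g4a, a phospholipase gene, at 5.52 ± 0.06 with AA2G and 4.46 ± 0.06 in untreated cells. Morc1, which male germ cells need for transposon silencing, was at 9.14 ± 0.01 with AA2G and 7.22 ± 0.18 in untreated cells. All 5 were called higher in limma, but they were picked by their span and their likeness to Dazl, so these calls add nothing. Among the partners of Dazl, whose values span less than 1 log2 unit, the correlations ran from -0.92 for Dnd1 to 0.43 for Nanos2. Their values span only 0.246 for Dnd1, whose change did not pass, and 0.436 for Nanos2.

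**Figure D5:**
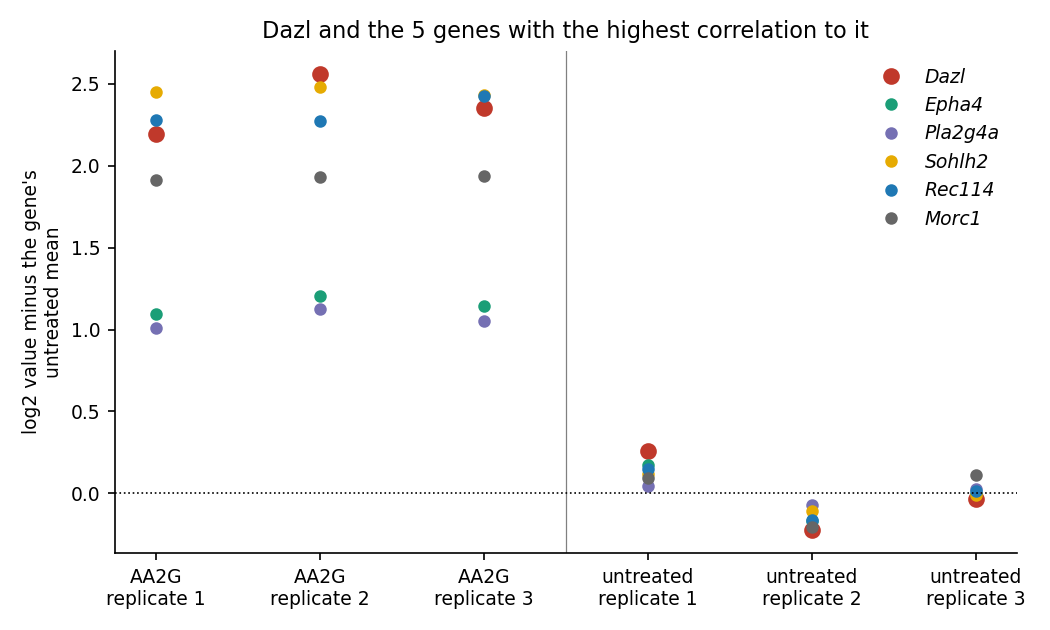
Log2 value of Dazl and of the 5 genes most correlated with it, minus each gene's untreated mean, on the 3 AA2G arrays (left) and the 3 untreated arrays (right). All 6 genes are higher on the AA2G arrays, with rises between 1.06 for Pla2g4a and 2.45 for Sohlh2.

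The labelled cell type was checked with 10 embryonic stem cell markers. Pou5f1 was at 7.47 ± 0.01 with AA2G and 7.64 ± 0.02 in untreated cells (SD, n = 3 each), and Nanog at 11.2 ± 0.04 with AA2G and 11.3 ± 0.03 in untreated cells. Dppa5a of the same list stood near the array medians, at 5.08 ± 0.10 with AA2G and 5.15 ± 0.09 in untreated cells. Of the 10, 0 passed in limma. Without adjustment, at p under 0.05, 3 were lower (30%, against 5.06% of all features) and 0 higher (against 4.66%). Klf4, a naive pluripotency factor, had the smallest p of them, at -0.31 ± 0.07 (SE; limma adjusted p = 0.127). The mean level of the list was 9.48 to 9.50 on the AA2G arrays and 9.56 to 9.61 on the untreated arrays, so it lay lower with AA2G on every array. That of poly(A) and cap binding did so too (7.49 to 7.52 against 7.53 to 7.59), as did that of mesoderm markers (5.31 to 5.32 against 5.34 to 5.45). The means of the 9 genes and of the later germ cell markers lay higher on every AA2G array, and the other lists overlapped. The mean of the 9 genes includes Dazl, whose rise was known when the genes were chosen. The other 8 genes had a median change of -0.08, with 2 positive and 6 negative values, so that mean shows no shift of the group. The part of these shifts in the results above was not tested. Of 11 primordial germ cell markers 0 passed, with 1 higher (Ifitm3, 0.48 ± 0.10, SE; limma adjusted p = 0.0909) and 1 lower (Dnd1) at p under 0.05 without adjustment (18.2%, against 9.71% of all features). Their mean level was 7.19 to 7.29 on the AA2G arrays and 7.15 to 7.25 on the untreated arrays. Of 12 measured markers of later germ cells 2 rose, Mael by 1.14 ± 0.13 (limma adjusted p = 0.00886) and Stra8 by 0.77 ± 0.11 (adjusted p = 0.0218). The called share was 16.7%, against 0.761% of all features, given with no test. It comes from these 2 genes in a list chosen with earlier results of these data known, so it says nothing of the list. The mean level was 5.47 to 5.56 on the AA2G arrays and 5.32 to 5.39 on the untreated arrays. Without Mael and Stra8 that mean was 4.95 to 5.09 on the AA2G arrays and 4.99 to 5.06 on the untreated arrays, and the median change of the 12 was 0.02, with 7 positive and 5 negative values. Tex101, Sycp1, Gfra1, Acrv1, Prm1 and Tnp1 were dim, below the percentile 40 of the features tested (4.99) in both groups. The other markers lay above it, and a flat mean says little of the dim ones. The part of germ-cell-like cells in the rise of Dazl was not tested. Of 8 markers of testis somatic cells, 8 of primitive endoderm, 7 of trophoblast, 5 of mesoderm, 5 of neuroectoderm and 8 of fibroblast feeders, 0 passed in limma. Without adjustment 1 was higher and 4 were lower at p under 0.05 over these 6 lists, where 4.66% of all features were higher and 5.06% lower. Array medians lay between 5.06 and 5.10, and over the features tested arrays correlated at r = 0.9936 to 0.996 within a group and 0.9919 to 0.9947 across groups, correlations across features, which are not independent replicates.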

How the data were processed

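Log2 expression values were used as the authors deposited them, and the submitters' processing notes name RMA and Affymetrix Expression Console. For versions, annotation release, array build and filters nothing is given in the sources used here. RMA makes the arrays' distributions alike and compresses changes of dim features. Of 41345 features, 23521 carry 1 gene symbol in the platform annotation and were tested. 1814 carry several and 16010 none listed. RefSeq names matched 23328 of them by Entrez Gene identifier.

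AA2G and untreated arrays were compared in limma 3.58.1 under R 4.3.3 (lmFit, eBayes, two-sided, no covariate), with Benjamini-Hochberg adjustment over 23521 features. The procedure was tested on simulated data. Lists used 1 feature per gene, the brightest. Named were all 9 genes, called genes of each list and up to 4 by smallest unadjusted p, fewer for markers, 3 neighbours of Dazl a side, and the 5 genes most correlated with it. Genes, lists and motifs were chosen with earlier results of these data known. Alternatives covered normalization, variance, weights, replicate number, features tested and leaving out each array. No batch is labelled, an array gives no read depth, the number of arrays limits the precision, and p-values measure the spread between these samples.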

Additional observations from a re-analysis of the deposited data

How the results depend on the processing

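The rise of Dazl kept its direction under all 15 alternatives, from 2.26 to 2.50, and passed in 14, with 2.37 unchanged but an adjusted p of 0.0972 under ordinary per-feature variances. The other 8 genes gave 0 calls under every alternative that tested them. Brighter features only left out Boll and Nanos2. Calls over all features numbered 179, against 277 with a trended robust prior, 496 with array weights, 13 with ordinary per-feature variances, and 64 to 131 with 1 array left out (64 without untreated replicate 3, 88 without AA2G replicate 3, 89 without AA2G replicate 2, 98 without untreated replicate 1, 101 without untreated replicate 2). Signs near 0 turned for Cpeb1 (0.0034 with quantile normalization repeated, 0.00088 with arrays shifted to 1 median, 0.11 with array weights, -0.10 to 0.16 with 1 array left out), Boll (0.053 with array weights, -0.11 to 0.12 with 1 array left out), Pum2 (-0.012 to 0.049 with 1 array left out) and Nanos3 (-0.32 to 0.0035 with 1 array left out). Nanos2, at 0.13, was at 0.27 with array weights and from 0.055 (without untreated replicate 3) and 0.064 (without AA2G replicate 3) to 0.23 (without untreated replicate 2) with 1 array left out, and Ddx25, at -0.21, from -0.29 (without untreated replicate 1) to -0.13 (without AA2G replicate 1 or untreated replicate 2). The cause was not tested. Whether same-numbered arrays were paired in culture is not stated in the sources used here. Deviations of same-numbered arrays correlated at 0.231, 0.224 and 0.0169, each the highest for its arrays, and numbers 1 and 2 crossed at -0.222. A pairing by number is therefore not settled, and the model without it and the model with it are both given. With replicate number as a block, 155 features were called, Dazl stayed at 2.37 (limma adjusted p = 0.0137), and Ddx25, whose AA2G array was lower by 0.20, 0.21 and 0.21 within the 3 numbers, had an adjusted p of 0.281. A dim array signal that may lie near background limits what Boll and Nanos2 can show.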
